A study of Mus musculus with 30 samples.

Results

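Interferon-stimulated genes are the transcripts that cells switch on when interferon binds its receptors. A set of 47 such mouse genes, named by symbol and chosen for function, was followed through brain tumors and normal brain. Of these, 43 were measured by a probe set that names that gene alone, among 19938 genes tested. Isg15, Gbp2 and Igtp lay only on probe sets that name several genes, Ifi44 had no named probe set here, and none of those 4 is reported. Irf1 alone had 2 probe sets, and the one with the higher mean over all 30 arrays was kept. The signal is a log2 value, so a difference of 1 is a 2-fold ratio, and it includes background, so a low value does not measure absence.

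Tumors were dissected from mouse brain after injection of CRE driven by the GFAP promoter in the cortex (4 arrays), by SYN1 in the cortex (4), by GFAP in the hippocampus (7), by NES in the hippocampus (4) or by GFAP in the subventricular zone, SVZ (3). Normal cortex (4 arrays) and normal hippocampus (4) carry no promoter in the labels. GFAP is a promoter of astrocytes and neural stem cells, NES of neural progenitors and SYN1 of neurons. The labels give no age, strain, recipient genotype or vector contents, and which arrays share an animal is not stated. The p-values therefore rest on the spread among arrays, part or all of which may be technical. No normal SVZ was analysed here. SVZ tumors were set against the mean of both normal regions, and tumor and tissue of origin cannot be told apart in that comparison.

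Type I interferons signal through Ifnar1 and Ifnar2, with the kinases Jak1 and Tyk2, to a transcription factor complex that includes Stat2 and Irf9. That complex binds the interferon-stimulated response element, ISRE, in promoters. Interferon gamma acts through its own receptor, and its target promoters can hold the gamma-activated site, GAS. In brain, microglia and infiltrating macrophages respond strongly to interferon, and astrocytes and tumor cells can respond too.

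The promoter windows of 5 members are shown, of which all but Cmpk2 hold an ISRE match. The neighbouring genes Rsad2 and Cmpk2 are included because they behaved differently in the arrays. Each window runs 5′ to 3′ on the gene's strand from 250 bases before to 50 after the annotated start (RefSeq, GRCm38.p6). Capitals mark every match to the ISRE letters GAAANNGAAA (or TTTCNNTTTC on the other strand) and to the GAS letters TTCNNNGAA.
Ifit3, chr19:34583279-34583578, plus strand: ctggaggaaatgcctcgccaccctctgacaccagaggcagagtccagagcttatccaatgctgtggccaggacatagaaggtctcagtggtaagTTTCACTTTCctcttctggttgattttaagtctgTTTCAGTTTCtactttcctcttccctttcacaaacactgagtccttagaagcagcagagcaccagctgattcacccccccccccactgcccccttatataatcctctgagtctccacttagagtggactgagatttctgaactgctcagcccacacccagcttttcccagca
Ifit1, chr19:34640639-34640938, plus strand: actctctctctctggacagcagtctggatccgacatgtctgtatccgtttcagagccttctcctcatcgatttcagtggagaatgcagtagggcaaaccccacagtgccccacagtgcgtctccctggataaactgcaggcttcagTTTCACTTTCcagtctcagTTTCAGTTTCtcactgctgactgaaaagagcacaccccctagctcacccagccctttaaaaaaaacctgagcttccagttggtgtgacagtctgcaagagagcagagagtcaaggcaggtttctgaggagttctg
Ifitm3, chr7:141010695-141010994, minus strand: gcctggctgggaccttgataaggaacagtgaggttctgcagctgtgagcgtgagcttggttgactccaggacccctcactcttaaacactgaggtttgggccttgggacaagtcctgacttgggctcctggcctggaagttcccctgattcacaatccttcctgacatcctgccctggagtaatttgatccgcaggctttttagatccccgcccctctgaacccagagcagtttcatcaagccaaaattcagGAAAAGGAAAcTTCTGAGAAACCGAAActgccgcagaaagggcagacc
Rsad2, chr12:26456403-26456702, minus strand: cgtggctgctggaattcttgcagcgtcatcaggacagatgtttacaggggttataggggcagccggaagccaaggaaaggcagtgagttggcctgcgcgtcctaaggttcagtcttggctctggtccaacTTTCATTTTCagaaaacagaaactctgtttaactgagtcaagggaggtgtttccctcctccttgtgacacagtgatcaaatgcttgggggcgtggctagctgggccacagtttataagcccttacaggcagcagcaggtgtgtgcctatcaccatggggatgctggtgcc
Cmpk2, chr12:26468965-26469264, plus strand: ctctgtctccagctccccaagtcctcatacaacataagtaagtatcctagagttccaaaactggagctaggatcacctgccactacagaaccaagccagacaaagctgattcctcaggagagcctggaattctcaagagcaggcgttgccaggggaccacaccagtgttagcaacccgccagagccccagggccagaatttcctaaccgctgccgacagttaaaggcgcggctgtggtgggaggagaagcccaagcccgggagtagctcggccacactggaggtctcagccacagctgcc

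Counting the start base as 0, the ISRE letters of Ifit3 began at -156 and -122 and those of Ifit1 at -104 and -85. Ifitm3 carried them downstream of its start, from 2 to 11 and from 19 to 28, with a GAS match from 13 to 21 that overlaps the second of these. Rsad2 held 1 match that began at -120, and neither motif was found in the Cmpk2 window. Of the 43 measured members, 34 had a window. The ISRE letters stood in 18 of these 34 genes (52.9%), against 607 of the 15614 tested genes with a window (3.89%). Counted by window, they stood in 20 of 40 member windows (50.0%) and in 3.27% of the 19177 windows of tested genes. GAS letters stood in 15.0% of member windows and 7.66% of all those windows. A match is a string of letters, not a measured binding site.

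**Figure D1:**
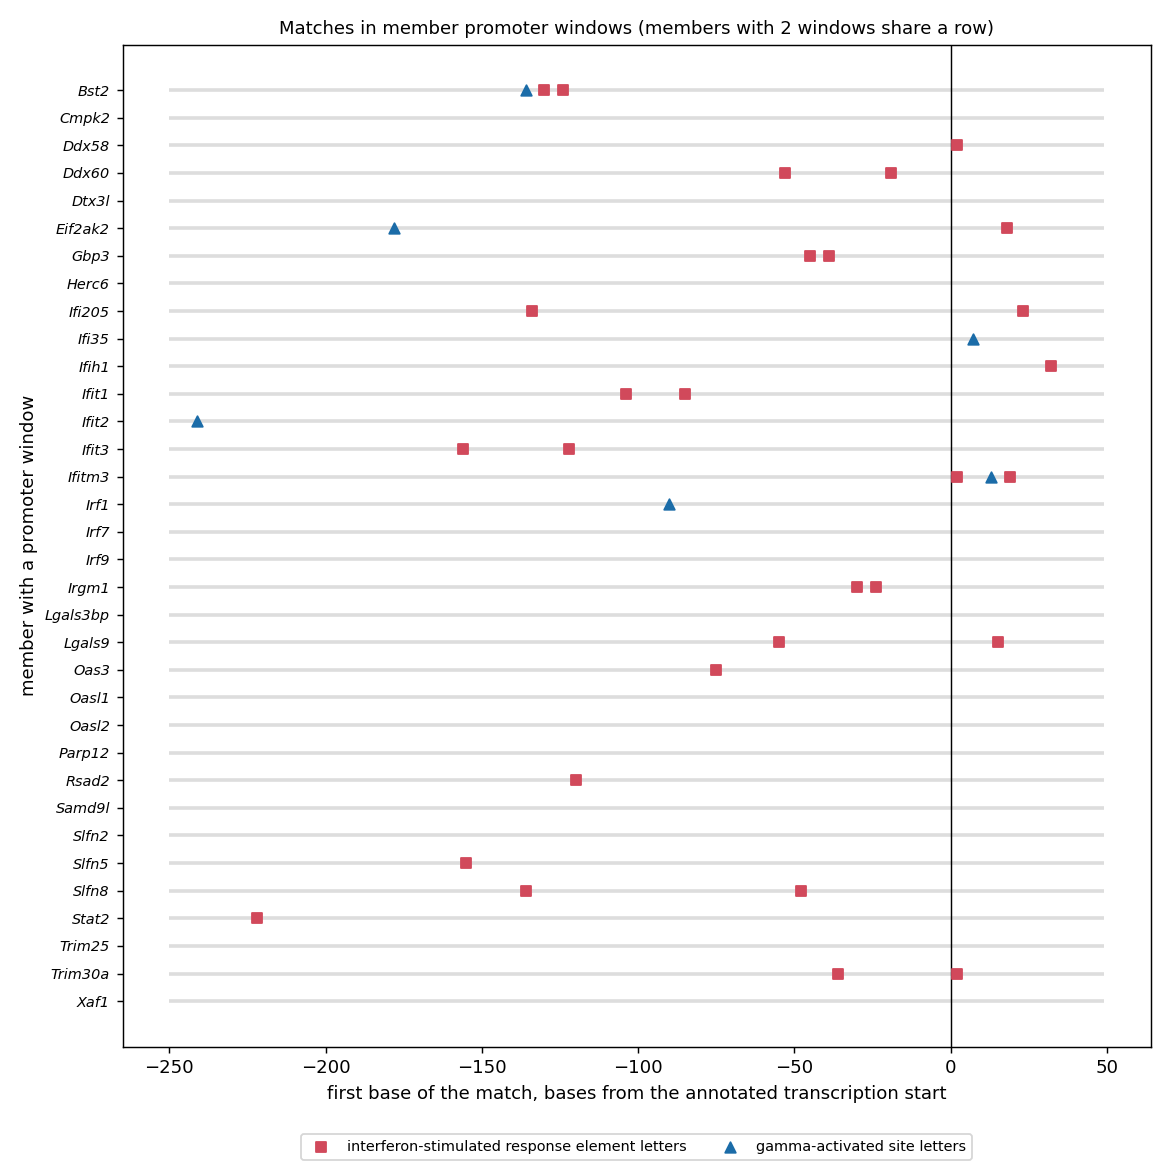
ISRE and GAS letters in the promoter windows of the 34 members that have one, by distance in bases from the annotated start (x axis; 1 row per member, members with 2 windows sharing a row). Most ISRE matches lie before the start; those of Ifitm3, Ifih1, Ddx58 and Eif2ak2 lie after it, and Ifi205, Trim30a and Lgals9 have matches on both sides.

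Array medians ran from 7.03 to 7.30. GFAP cortex tumor 1 stood apart, with an interquartile range of 2.02 against 2.88 to 2.94 in the other GFAP cortex tumors and a mean correlation with its own group of 0.901 against 0.946 to 0.958. GFAP hippocampus tumors 5, 6 and 7 had the lowest medians (7.03 to 7.07), and their mean over all genes lay 0.24 to 0.28 below normal brain. The counts and medians of the members are also given without these arrays where they move by over 1.5 times or change direction. The mean of 11 neuron markers was 11.54 to 12.04 in the normal arrays, so both normal tissues carried the neuronal transcripts of brain, and 8.19 to 11.65 in tumors.

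The interferon-stimulated genes were higher than in normal brain in all 5 tumor groups, and none was lower past the threshold, whereas 18.8% of all genes were lower in GFAP cortex tumors, 20.5% in SYN1 cortex, 25.2% in GFAP hippocampus, 2.86% in NES hippocampus and 21.4% in SVZ tumors. By limma with Benjamini-Hochberg adjustment over all genes (adjusted p under 0.05, two-sided), 37 of 43 were higher in GFAP cortex tumors than in normal cortex, where 9.0% of all genes were higher. In SYN1 cortex tumors 41 were higher, against 18.2% of all genes. In GFAP hippocampus tumors 36 were higher than in normal hippocampus (16.1% of all genes), and in NES hippocampus tumors 39 were (5.69%). In SVZ tumors 41 were higher than in normal brain (16.2%).

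The median difference of the 43 members from normal was 1.42 in GFAP cortex tumors, 2.07 in SYN1 cortex tumors, 1.38 in GFAP hippocampus tumors, 1.94 in NES hippocampus tumors and 1.82 in SVZ tumors. Over all genes those medians were -0.10, -0.04, -0.08, -0.04 and -0.00. Every array of the tumor group lay above every array of its normal tissue for 33 members in GFAP cortex tumors (13.3% of all genes) and 41 in SYN1 cortex tumors (23.1%). The same held for 28 in GFAP hippocampus tumors (8.43%), 43 in NES hippocampus tumors (13.6%) and 42 in SVZ tumors (19.1%). The comparisons within a region share their normal arrays. Without the 4 arrays that stand apart, 40 members were higher in GFAP cortex tumors (median 1.63) and 41 in GFAP hippocampus tumors (median 1.70). The members that then passed in addition were Ifit2, Oasl1 and Stat2 in GFAP cortex tumors and Dtx3l, Ifi205, Oas2, Oasl1 and Stat2 in GFAP hippocampus tumors. Herc6 in SYN1 cortex tumors, Ifi205 and Oasl1 in NES hippocampus tumors and Stat2 in SVZ tumors also passed then, with the same differences and smaller adjusted p.

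**Figure D2:**
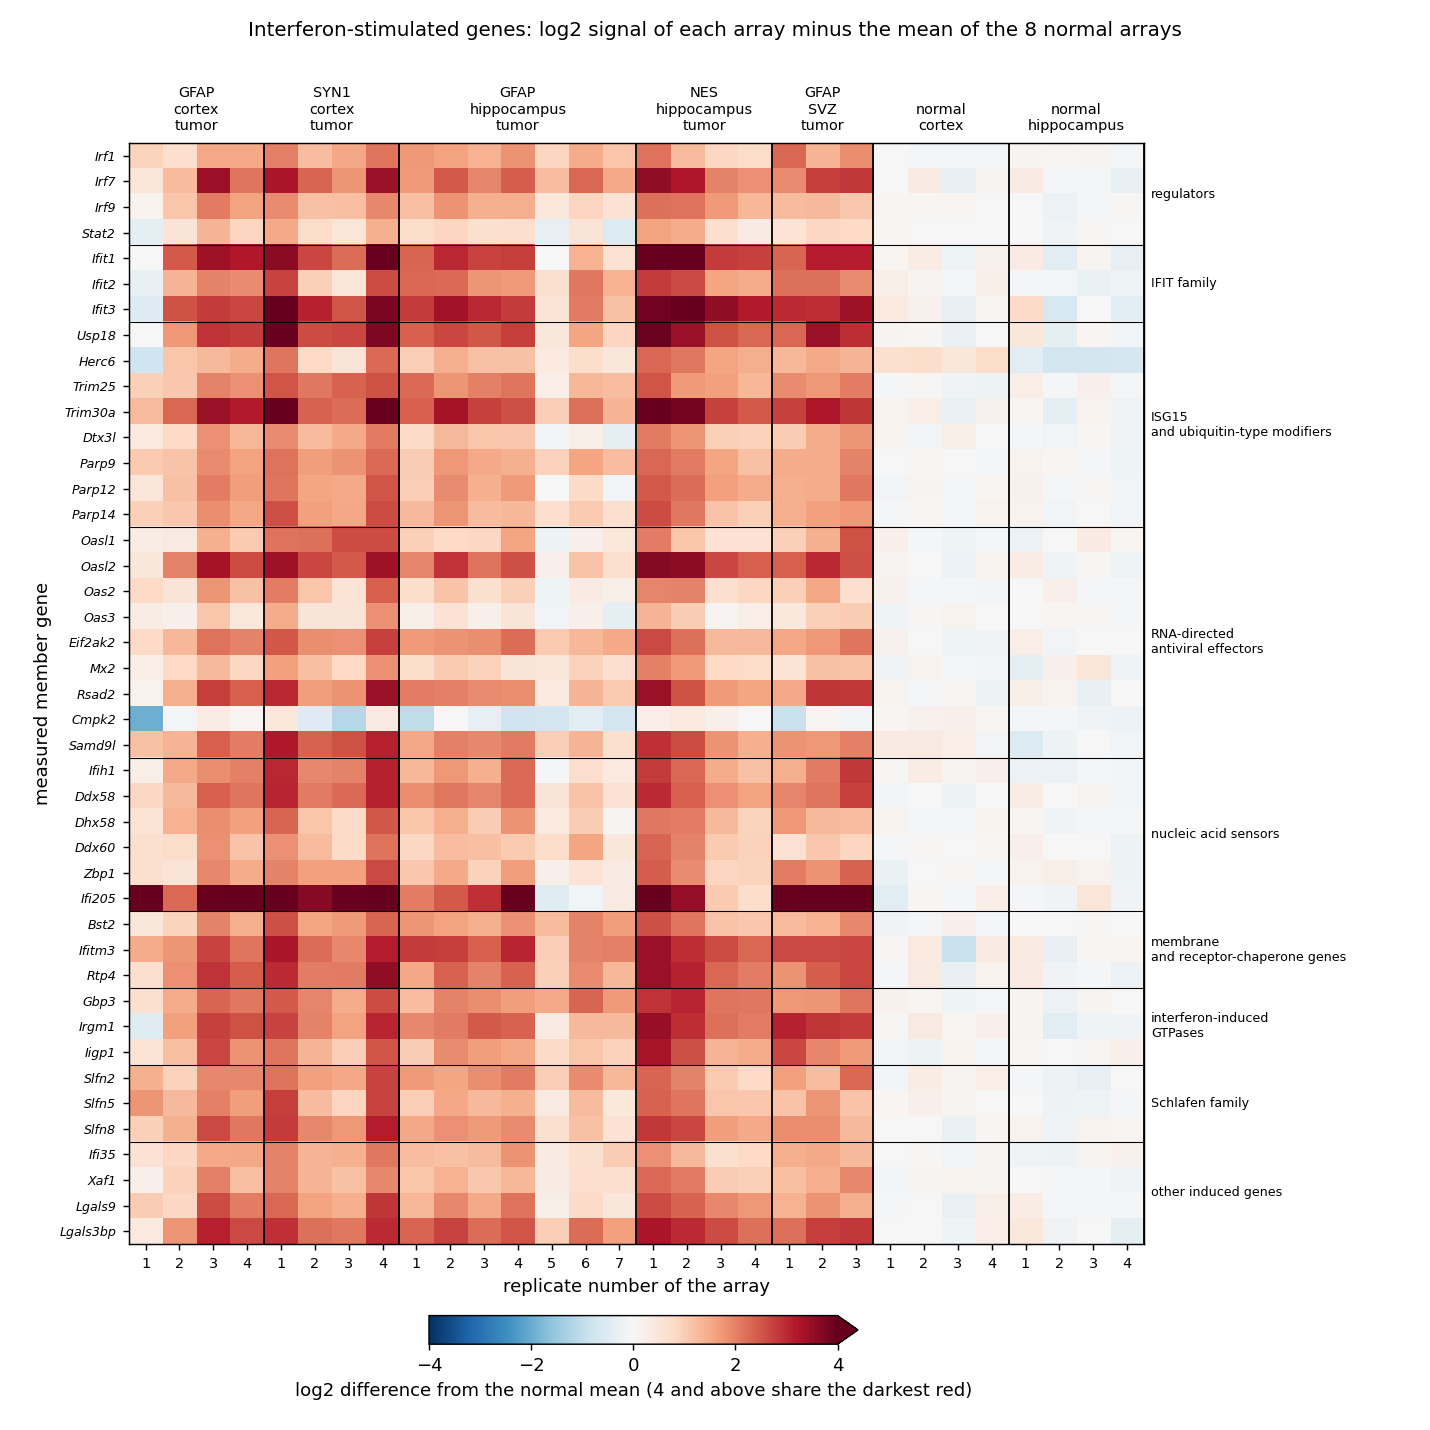
Log2 signal of the 43 members in each of the 30 arrays minus the mean of the normal arrays (colour; 4 and above share the darkest red), with genes in rows by role and arrays in columns by group. Tumor columns are red in nearly every row, GFAP cortex tumor 1 and GFAP hippocampus tumors 5 and 7 are the palest tumor columns, and Cmpk2 stays near or below the normal level in most tumors.

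**Figure D3:**
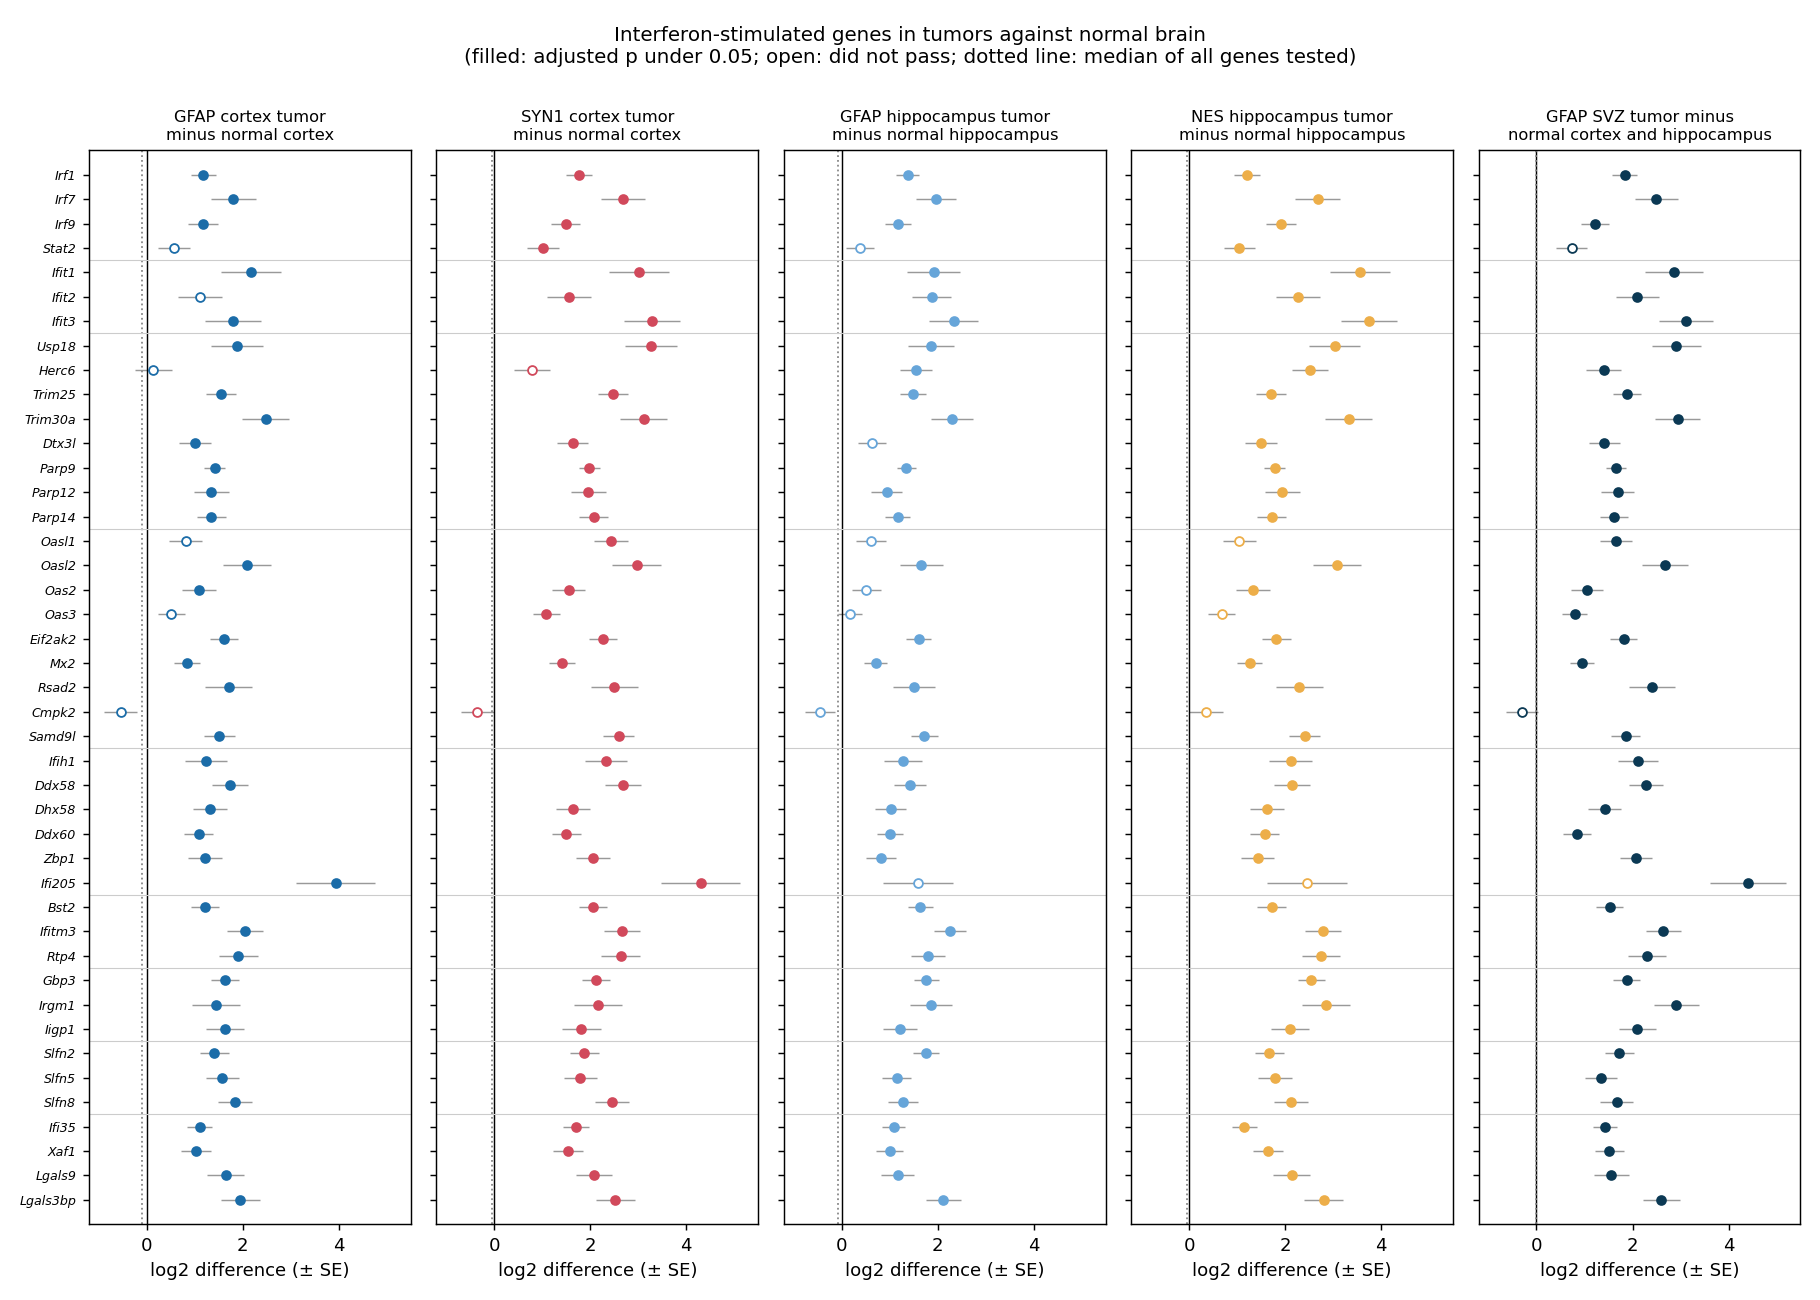
Log2 difference of each member from normal tissue with its standard error (x axis) in the 5 tumor groups (panels); filled points passed the adjusted p of 0.05, open points did not, and the dotted line is the median of all genes tested. Filled points number 37, 41, 36, 39 and 41 from the left panel to the right.

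Markers of some other cells also differed from normal, in a direction that depended on the cell type. The share of all genes called is the background for each count. Upward it was 9.0% for GFAP cortex, 18.2% for SYN1 cortex and 16.1% for GFAP hippocampus tumors. For NES hippocampus it was 5.69% and for SVZ 16.2%. Downward the shares were 18.8%, 20.5%, 25.2%, 2.86% and 21.4% in the same order. A count of 1 or 2 in such short lists cannot be told from these shares. Of 17 microglia and macrophage markers, 12 were higher in GFAP cortex, SYN1 cortex, GFAP hippocampus and NES hippocampus tumors and 13 in SVZ tumors. Lyz2, the lysozyme of myeloid cells, was higher by 3.46 to 4.25 and C1qa, a complement component, by 1.65 to 2.73. Cx3cr1, P2ry12 and Tmem119, which mark resident microglia, passed the test in none of the 5 groups. The mean of the 17 markers lay 0.78 to 2.01 above normal in GFAP cortex tumors, 0.52 to 2.03 in SYN1 cortex tumors, 0.91 to 2.14 in GFAP hippocampus tumors, 1.05 to 2.05 in NES hippocampus tumors and 1.28 to 1.89 in SVZ tumors, against -0.17 to 0.14 in the normal arrays. Of 11 T and NK cell markers, 1 was higher in NES hippocampus tumors, 6 in SVZ tumors and 0 in the other 3 groups. No plasmacytoid dendritic cell marker of 5 was higher in any group. In GFAP cortex tumors 1 was lower, and 2 were in each of SYN1 cortex, GFAP hippocampus and SVZ tumors. Of 6 neutrophil markers, 1 was higher in each of GFAP cortex and SVZ tumors and 2 in each of SYN1 cortex and GFAP hippocampus tumors. Of 3 B cell markers, 1 was higher in each of SYN1 cortex and SVZ tumors. Neuron markers were lower for 7 of 11 in GFAP cortex tumors, 9 in SYN1 cortex tumors, 7 in GFAP hippocampus tumors, 0 in NES hippocampus tumors and 9 in SVZ tumors. All 7 oligodendrocyte markers were lower in GFAP cortex, SYN1 cortex and SVZ tumors, 3 in GFAP hippocampus tumors and 0 in NES hippocampus tumors. Of 8 astrocyte markers, 2 were lower in GFAP cortex tumors and 4 each in SYN1 cortex and SVZ tumors. In GFAP hippocampus tumors 1 was higher. Of 7 endothelial markers, 2 were higher in GFAP cortex tumors, 5 each in SYN1 cortex, GFAP hippocampus and SVZ tumors and 1 in NES hippocampus tumors. Mural and fibroblast markers were higher for 5 of 7 in GFAP cortex tumors, 3 in SYN1 cortex tumors, 2 in GFAP hippocampus tumors, 0 in NES hippocampus tumors and 1 in SVZ tumors. In bulk RNA, more cells of a type and more RNA per cell cannot be told apart, and the part these cell types play in the members' differences was not tested.

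Of the 4 regulators, 3 rose in GFAP cortex, GFAP hippocampus and SVZ tumors and all 4 in SYN1 cortex tumors and in the NES group. Irf7, the transcription factor that amplifies type I interferon production, measured 7.23, 8.0, 10.15 and 8.89 in GFAP cortex tumors and 10.02, 9.07, 8.51 and 10.20 in SYN1 cortex tumors, against 6.74, 7.07, 6.42 and 6.84 in normal cortex. In the hippocampus Irf7 had a lowest, median and highest signal of 7.98, 8.69 and 9.19 in GFAP hippocampus tumors and values of 10.29, 9.98, 8.72 and 8.58 in NES hippocampus tumors, against 7.06, 6.65, 6.70 and 6.44 in normal hippocampus. Irf7 was 8.64, 9.50 and 9.56 in SVZ tumors. Every tumor array was above every normal array of its comparison, and GFAP cortex tumors 1 and 3 differed from each other by more than the group means of tumor and normal cortex did. The Irf7 difference was 1.80 ± 0.47 (adjusted p = 0.00509) in GFAP cortex tumors and 2.68 ± 0.47 (adjusted p = 5.24e-05) in SYN1 cortex tumors. It was 1.96 ± 0.41 (adjusted p = 0.000491) in GFAP hippocampus tumors, 2.68 ± 0.47 (adjusted p = 0.000519) in NES hippocampus tumors and 2.49 ± 0.45 (adjusted p = 8.12e-05) in SVZ tumors.

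Irf9, the DNA-binding subunit of the complex that holds Stat2, measured 8.03, 9.01, 9.99 and 9.52 in GFAP cortex tumors and 9.79, 9.06, 9.12 and 9.83 in SYN1 cortex tumors, against 7.97, 7.98, 7.97 and 7.93 in normal cortex. Hippocampal Irf9 had a lowest, median and highest signal of 8.33, 9.11 and 9.69 in GFAP hippocampus tumors and values of 10.11, 10.06, 9.59 and 9.23 in NES hippocampus tumors, against 7.90, 7.66, 7.82 and 7.95 in normal hippocampus. Its SVZ tumor values were 9.15, 9.21 and 8.98. All tumor arrays again lay above their normals, GFAP cortex tumor 1 by the narrowest margin, and the differences ran over 1.17 to 1.91 with adjusted p of at most 0.0055. Irf1, an activator induced mainly by interferon gamma, measured 7.87, 7.66, 8.50 and 8.52 in GFAP cortex tumors and 9.01, 8.23, 8.53 and 9.14 in SYN1 cortex tumors, against 6.99, 6.97, 6.95 and 6.91 in normal cortex. Hippocampal Irf1 had a lowest, median and highest signal of 7.87, 8.48 and 8.79 in GFAP hippocampus tumors and values of 9.16, 8.26, 7.82 and 7.73 in NES hippocampus tumors, against 7.10, 7.04, 7.12 and 6.92 in normal hippocampus. Irf1 was 9.29, 8.35 and 8.87 in SVZ tumors. Normal Irf1 was tight around 7 and no tumor array overlapped it, with differences of 1.18 to 1.84 (adjusted p at most 0.00496).

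Stat2, the partner of Irf9, was the regulator with the smallest differences. It measured 7.65, 8.55, 9.37 and 8.88 in GFAP cortex tumors and 9.54, 8.77, 8.52 and 9.45 in SYN1 cortex tumors, against 8.11, 8.03, 8.05 and 8.01 in normal cortex. Hippocampal Stat2 had a lowest, median and highest signal of 7.48, 8.66 and 8.90 in GFAP hippocampus tumors and values of 9.64, 9.50, 8.69 and 8.35 in NES hippocampus tumors, against 8.03, 7.88, 8.09 and 8.01 in normal hippocampus. The SVZ tumor values were 8.58, 8.86 and 8.83. GFAP cortex tumor 1 and GFAP hippocampus tumors 5 and 7 fell inside or below the normal range, and all other tumor arrays were above it. Stat2 rose by 1.02 ± 0.33 (adjusted p = 0.0147) in SYN1 cortex tumors and 1.05 ± 0.33 (adjusted p = 0.0462) in NES hippocampus tumors. Its difference did not pass in GFAP cortex tumors (0.57 ± 0.33, adjusted p = 0.224), GFAP hippocampus tumors (0.39 ± 0.29, adjusted p = 0.3) or SVZ tumors (0.73 ± 0.32, adjusted p = 0.0708). Without GFAP cortex tumor 1 the GFAP cortex difference was 0.89 (adjusted p = 0.0491), which passed, and without the 4 arrays that stand apart the GFAP hippocampus difference was 0.75 (adjusted p = 0.0105), which passed too.

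The IFIT proteins bind viral RNA and block its translation. All 3 members rose in each tumor group except GFAP cortex tumors, where 2 did. Ifit3 measured 7.10, 10.19, 10.42 and 10.29 in GFAP cortex tumors and 11.73, 10.70, 10.15 and 11.39 in SYN1 cortex tumors, against 8.01, 7.81, 7.31 and 7.68 in normal cortex. Hippocampal Ifit3 had a lowest, median and highest signal of 8.17, 10.43 and 10.99 in GFAP hippocampus tumors and values of 11.49, 11.71, 11.16 and 10.80 in NES hippocampus tumors, against 8.40, 6.98, 7.63 and 7.20 in normal hippocampus. Ifit3 was 10.61, 10.60 and 11.02 in SVZ tumors. GFAP cortex tumor 1 lay below all 4 normal cortex arrays while the other 3 GFAP cortex tumors lay close together, and GFAP hippocampus tumor 5 fell inside the normal range. Ifit3 rose by 1.80 ± 0.58 (adjusted p = 0.0221) in GFAP cortex tumors, 3.29 ± 0.58 (adjusted p = 6.73e-05) in SYN1 cortex tumors and 2.33 ± 0.52 (adjusted p = 0.000829) in GFAP hippocampus tumors. The rise was 3.74 ± 0.58 (adjusted p = 0.00017) in NES hippocampus tumors, 13.3-fold, and 3.11 ± 0.56 (adjusted p = 8.48e-05) in SVZ tumors. Without GFAP cortex tumor 1 the GFAP cortex difference was 2.59 (adjusted p = 0.000748).

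Ifit1 measured 7.31, 9.73, 10.69 and 10.48 in GFAP cortex tumors and 10.90, 9.95, 9.51 and 11.23 in SYN1 cortex tumors, against 7.35, 7.58, 7.13 and 7.46 in normal cortex. Hippocampal Ifit1 had a lowest, median and highest signal of 7.31, 9.61 and 10.31 in GFAP hippocampus tumors and values of 11.52, 11.42, 10.08 and 10.03 in NES hippocampus tumors, against 7.62, 6.84, 7.38 and 6.95 in normal hippocampus. Ifit1 was 9.63, 10.42 and 10.42 in SVZ tumors. The same 2 arrays, GFAP cortex tumor 1 and GFAP hippocampus tumor 5, were at the normal level, and NES hippocampus tumors 1 and 2 were the highest of all. Ifit1 rose by 1.92 to 3.56 over the 5 comparisons (adjusted p at most 0.0104). Ifit2 rose by 1.56 to 2.26 in 4 groups and had a difference of 1.11 ± 0.46 (adjusted p = 0.0751) in GFAP cortex tumors. That difference was 1.62 without GFAP cortex tumor 1 (adjusted p = 0.00942).

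The 8 measured genes of ISG15 and ubiquitin-type modification include the deconjugating enzyme Usp18, ubiquitin ligases and the Parp family. Of these, 7 rose in GFAP cortex, SYN1 cortex and GFAP hippocampus tumors, and all 8 in NES hippocampus and SVZ tumors. Usp18, which removes ISG15 and damps the type I receptor, measured 7.13, 8.82, 9.99 and 9.90 in GFAP cortex tumors and 11.06, 9.69, 9.78 and 10.83 in SYN1 cortex tumors, against 7.19, 7.15, 6.84 and 7.11 in normal cortex. Hippocampal Usp18 had a lowest, median and highest signal of 7.55, 9.47 and 9.85 in GFAP hippocampus tumors and values of 11.01, 10.54, 9.64 and 9.38 in NES hippocampus tumors, against 7.56, 6.75, 7.16 and 6.99 in normal hippocampus. Usp18 was 9.40, 10.56 and 10.05 in SVZ tumors. Only GFAP cortex tumor 1 and GFAP hippocampus tumor 5 overlapped their normals, and Usp18 rose by 1.86 to 3.27 (adjusted p at most 0.00962). Trim30a, a TRIM protein that restrains Toll-like receptor signalling in mouse, measured 8.38, 9.42, 10.59 and 10.28 in GFAP cortex tumors and 11.11, 9.47, 9.36 and 11.29 in SYN1 cortex tumors, against 7.27, 7.38, 6.84 and 7.29 in normal cortex. Hippocampal Trim30a had a lowest, median and highest signal of 8.09, 9.50 and 10.44 in GFAP hippocampus tumors and values of 11.11, 10.94, 9.84 and 9.57 in NES hippocampus tumors, against 7.20, 6.75, 7.25 and 6.97 in normal hippocampus. Its SVZ tumor values were 9.86, 10.35 and 9.97. No tumor array of Trim30a reached down to the normal range, and it rose by 2.30 to 3.32 (adjusted p at most 0.000665).

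Parp9, which works in a complex with the ligase Dtx3l, had the smallest adjusted p of the members in 4 of the 5 comparisons and rose by 1.35 to 1.98 (adjusted p from 3e-07 to 6.62e-05). Dtx3l rose by 1.01 to 1.63 in 4 groups and had a difference of 0.64 ± 0.29 (adjusted p = 0.083) in GFAP hippocampus tumors, which was 1.13 (adjusted p = 0.000471) without the 4 arrays that stand apart. Parp12 and Parp14, of the same family, rose in all 5 groups by 0.94 to 1.96 and 1.17 to 2.07, and the smallest of these, Parp12 in GFAP hippocampus tumors, was 1.49 without the 4 arrays. Trim25, the ligase that activates the sensor encoded by Ddx58, rose by 1.49 to 2.47 (adjusted p at most 0.000793).

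Herc6, the mouse ligase that attaches ISG15, lay lower in the normal hippocampus arrays than in the normal cortex arrays and was singled out after its values were seen. It measured 6.68, 8.57, 8.76 and 8.96 in GFAP cortex tumors and 9.61, 8.25, 7.98 and 9.73 in SYN1 cortex tumors, against 8.12, 8.16, 7.93 and 8.21 in normal cortex. Hippocampal Herc6 had a lowest, median and highest signal of 7.85, 8.46 and 8.91 in GFAP hippocampus tumors and values of 9.77, 9.59, 9.04 and 8.93 in NES hippocampus tumors, against 7.05, 6.71, 6.73 and 6.78 in normal hippocampus. Herc6 was 8.78, 8.98 and 8.82 in SVZ tumors. The 4 normal hippocampus arrays lay below all 4 normal cortex arrays, whereas the tumor groups of the 2 regions overlapped. Herc6 rose by 1.55 ± 0.34 (adjusted p = 0.000681) in GFAP hippocampus tumors, 2.51 ± 0.38 (adjusted p = 0.000114) in NES hippocampus tumors and 1.40 ± 0.36 (adjusted p = 0.0031) in SVZ tumors. In the cortex its difference was 0.14 ± 0.38 in GFAP tumors (adjusted p = 0.84) and 0.79 ± 0.38 in SYN1 tumors (adjusted p = 0.109). Without GFAP cortex tumor 1 the GFAP cortex difference of Herc6 was 0.66 (adjusted p = 0.133), and that in SYN1 tumors had an adjusted p of 0.0326, which passed. Normal hippocampus minus normal cortex was -1.29 ± 0.38 (adjusted p = 0.123), and the GFAP tumor difference in the hippocampus minus that in the cortex was 1.41 ± 0.51 (adjusted p = 0.247), so neither passed. Without GFAP cortex tumor 1 the difference between the normal tissues had an adjusted p of 0.0159, which passed, and the difference in differences of Herc6 was 0.89 (adjusted p = 0.327).

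The 9 antiviral effectors that act on RNA or nucleotides split. In SYN1 cortex and SVZ tumors 8 rose, in GFAP cortex and NES hippocampus tumors 6, and in GFAP hippocampus tumors 5. Oasl2, an oligoadenylate synthetase-like protein, measured 8.60, 10.14, 11.48 and 10.77 in GFAP cortex tumors and 11.53, 10.82, 10.60 and 11.52 in SYN1 cortex tumors, against 8.25, 8.17, 7.91 and 8.27 in normal cortex. Hippocampal Oasl2 had a lowest, median and highest signal of 8.34, 10.10 and 11.02 in GFAP hippocampus tumors and values of 11.82, 11.72, 10.81 and 10.55 in NES hippocampus tumors, against 8.43, 7.96, 8.20 and 7.96 in normal hippocampus. Oasl2 was 10.53, 11.17 and 10.73 in SVZ tumors. Only GFAP hippocampus tumor 5 came down to the normal range. Oasl2 rose by 2.10 ± 0.50 in GFAP cortex tumors, 2.97 ± 0.50 in SYN1 cortex tumors, 1.66 ± 0.45 in GFAP hippocampus tumors, 3.09 ± 0.50 in NES hippocampus tumors and 2.67 ± 0.48 in SVZ tumors (adjusted p at most 0.00422).

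Oasl1, which in mouse restrains Irf7 translation, measured 7.73, 7.77, 8.85 and 8.45 in GFAP cortex tumors and 9.58, 9.63, 10.03 and 10.03 in SYN1 cortex tumors, against 7.62, 7.36, 7.23 and 7.33 in normal cortex. Hippocampal Oasl1 had a lowest, median and highest signal of 7.20, 8.20 and 9.0 in GFAP hippocampus tumors and values of 9.47, 8.54, 8.0 and 7.99 in NES hippocampus tumors, against 7.19, 7.39, 7.75 and 7.49 in normal hippocampus. Oasl1 was 8.38, 8.85 and 9.98 in SVZ tumors. All 4 SYN1 cortex tumors lay above all 4 GFAP cortex tumors, and GFAP hippocampus tumors overlapped the normals. Oasl1 rose by 2.43 ± 0.35 (adjusted p = 5.61e-06) in SYN1 cortex tumors and 1.65 ± 0.33 (adjusted p = 0.00028) in SVZ tumors. Its differences of 0.81 ± 0.35 in GFAP cortex tumors (adjusted p = 0.085), 0.61 ± 0.31 in GFAP hippocampus tumors (adjusted p = 0.114) and 1.05 ± 0.35 in NES hippocampus tumors (adjusted p = 0.0601) did not pass.

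Of the oligoadenylate synthetases proper, which activate RNase L, Oas2 rose by 1.06 to 1.55 except in GFAP hippocampus tumors (0.52 ± 0.31, adjusted p = 0.188). Oas3 rose by 1.09 ± 0.28 in SYN1 cortex tumors and 0.79 ± 0.27 in SVZ tumors and had differences of 0.51 ± 0.28 in GFAP cortex tumors, 0.17 ± 0.25 in GFAP hippocampus tumors and 0.68 ± 0.28 in NES hippocampus tumors (adjusted p from 0.139 to 0.602). The kinase Eif2ak2, which halts translation on double-stranded RNA, rose by 1.60 to 2.26, and Samd9l, an antiviral factor, by 1.52 to 2.59; both passed in all 5 groups. Mx2, a dynamin-like GTPase that traps viral components, measured 5.78, 6.33, 6.84 and 6.36 in GFAP cortex tumors and 7.17, 6.74, 6.33 and 7.34 in SYN1 cortex tumors, against 5.38, 5.67, 5.47 and 5.42 in normal cortex. Hippocampal Mx2 had a lowest, median and highest signal of 6.01, 6.24 and 6.58 in GFAP hippocampus tumors and values of 7.53, 7.22, 6.31 and 6.27 in NES hippocampus tumors, against 5.17, 5.74, 6.01 and 5.36 in normal hippocampus. Mx2 was 6.08, 6.69 and 6.68 in SVZ tumors. Mx2 was among the dimmest members, overlapped normal only in GFAP hippocampus tumor 5, and rose by 0.71 to 1.41 (adjusted p at most 0.0175).

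Rsad2, the radical SAM enzyme viperin, and its neighbour Cmpk2, a mitochondrial nucleotide kinase, went different ways; Cmpk2 was singled out after its values were seen. Rsad2 measured 6.99, 8.31, 9.62 and 9.23 in GFAP cortex tumors and 9.84, 8.50, 8.65 and 10.29 in SYN1 cortex tumors, against 6.99, 6.78, 6.89 and 6.64 in normal cortex. Hippocampal Rsad2 had a lowest, median and highest signal of 7.23, 8.71 and 8.88 in GFAP hippocampus tumors and values of 10.28, 9.39, 8.55 and 8.41 in NES hippocampus tumors, against 7.09, 6.98, 6.53 and 6.83 in normal hippocampus. Rsad2 was 8.36, 9.71 and 9.67 in SVZ tumors. GFAP cortex tumor 1 was at the normal level and every other tumor array was above it. Rsad2 rose by 1.50 to 2.50 over the 5 comparisons (adjusted p at most 0.0103).

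Cmpk2 measured 6.56, 8.44, 8.82 and 8.57 in GFAP cortex tumors and 8.93, 8.0, 7.36 and 8.88 in SYN1 cortex tumors, against 8.58, 8.69, 8.71 and 8.57 in normal cortex. Hippocampal Cmpk2 had a lowest, median and highest signal of 7.49, 7.78 and 8.50 in GFAP hippocampus tumors and values of 8.78, 8.90, 8.71 and 8.50 in NES hippocampus tumors, against 8.44, 8.42, 8.38 and 8.27 in normal hippocampus. Cmpk2 was 7.62, 8.60 and 8.39 in SVZ tumors. Only the NES hippocampus tumors lay wholly above their normals, and they did so narrowly. The normal arrays held Cmpk2 near its highest tumor level. Its differences were -0.54 ± 0.35 (adjusted p = 0.282) in GFAP cortex tumors, -0.35 ± 0.35 (adjusted p = 0.498) in SYN1 cortex tumors and -0.44 ± 0.31 (adjusted p = 0.266) in GFAP hippocampus tumors. In NES hippocampus tumors the difference was 0.35 ± 0.35 (adjusted p = 0.609) and in SVZ tumors -0.31 ± 0.34 (adjusted p = 0.543), so Cmpk2 passed in no group, nor without the 4 arrays that stand apart. The GFAP cortex difference of Cmpk2 rested on GFAP cortex tumor 1 and was -0.03 (adjusted p = 0.942) without it.

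Of the 6 nucleic acid sensors, all rose in GFAP cortex, SYN1 cortex and SVZ tumors, and 5 in GFAP hippocampus and NES hippocampus tumors. Ddx58, which encodes the RNA sensor RIG-I, measured 8.38, 8.85, 9.93 and 9.68 in GFAP cortex tumors and 10.58, 9.62, 9.83 and 10.62 in SYN1 cortex tumors, against 7.44, 7.58, 7.36 and 7.54 in normal cortex. Hippocampal Ddx58 had a lowest, median and highest signal of 8.06, 9.41 and 9.82 in GFAP hippocampus tumors and values of 10.55, 9.95, 9.38 and 9.17 in NES hippocampus tumors, against 7.84, 7.52, 7.67 and 7.42 in normal hippocampus. Ddx58 was 9.51, 9.68 and 10.30 in SVZ tumors. No tumor array overlapped its normals, and Ddx58 rose by 1.43 to 2.68 (adjusted p at most 0.00143). Ifih1, the sensor MDA5 of long double-stranded RNA, measured 7.21, 8.50, 8.84 and 9.01 in GFAP cortex tumors and 10.01, 8.92, 8.96 and 10.07 in SYN1 cortex tumors, against 7.05, 7.28, 7.08 and 7.20 in normal cortex. Hippocampal Ifih1 had a lowest, median and highest signal of 6.94, 8.32 and 9.24 in GFAP hippocampus tumors and values of 9.80, 9.30, 8.47 and 8.16 in NES hippocampus tumors, against 6.75, 6.74, 6.91 and 6.89 in normal hippocampus. Its SVZ tumor values were 8.43, 9.07 and 9.82. Ifih1 overlapped normal only in GFAP cortex tumor 1 and rose by 1.23 to 2.34 (adjusted p at most 0.0354).

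Zbp1, a sensor of left-handed nucleic acid that can start necroptosis, measured 7.96, 7.82, 9.23 and 8.79 in GFAP cortex tumors and 9.32, 8.95, 8.97 and 9.96 in SYN1 cortex tumors, against 7.06, 7.30, 7.36 and 7.24 in normal cortex. Hippocampal Zbp1 had a lowest, median and highest signal of 7.54, 8.24 and 9.0 in GFAP hippocampus tumors and values of 9.75, 9.20, 8.17 and 8.20 in NES hippocampus tumors, against 7.46, 7.56, 7.47 and 7.11 in normal hippocampus. Zbp1 was 9.37, 9.11 and 9.69 in SVZ tumors. It rose by 0.81 to 2.07 (adjusted p at most 0.036), least in GFAP hippocampus tumors, where tumor 5 overlapped normal. Dhx58 and Ddx60, helicases that assist RIG-I and MDA5, rose in all groups by 1.02 to 1.64 and 0.84 to 1.58.

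Ifi205, a mouse member of the DNA-binding Ifi200 family, had the largest differences in the cortex and SVZ tumors and a wide spread between hippocampus tumors. It measured 10.77, 8.35, 10.06 and 10.66 in GFAP cortex tumors and 10.59, 9.73, 10.02 and 10.97 in SYN1 cortex tumors, against 5.65, 6.14, 5.98 and 6.34 in normal cortex. Hippocampal Ifi205 had a lowest, median and highest signal of 5.59, 8.11 and 10.34 in GFAP hippocampus tumors and values of 10.80, 9.58, 7.13 and 6.76 in NES hippocampus tumors, against 6.03, 5.94, 6.56 and 5.94 in normal hippocampus. Ifi205 was 10.10, 10.17 and 11.15 in SVZ tumors. The cortex and SVZ tumors were all above 8, NES hippocampus tumors 1 and 2 were at the cortex level and tumors 3 and 4 far lower, and GFAP hippocampus tumors 5, 6 and 7 were at the normal level while tumors 1 to 4 were above it. Ifi205 rose by 3.93 ± 0.83 (adjusted p = 0.00113) in GFAP cortex tumors, 15.3-fold, by 4.30 ± 0.83 (adjusted p = 0.00016) in SYN1 cortex tumors and by 4.40 ± 0.79 (adjusted p = 8.77e-05) in SVZ tumors, 21.1-fold. The differences of 1.59 ± 0.73 (adjusted p = 0.0841) in GFAP hippocampus tumors and 2.45 ± 0.83 (adjusted p = 0.0654) in NES hippocampus tumors did not pass. Without the 4 arrays that stand apart the GFAP hippocampus difference was 2.87 (adjusted p = 0.00088).

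**Figure D4:**
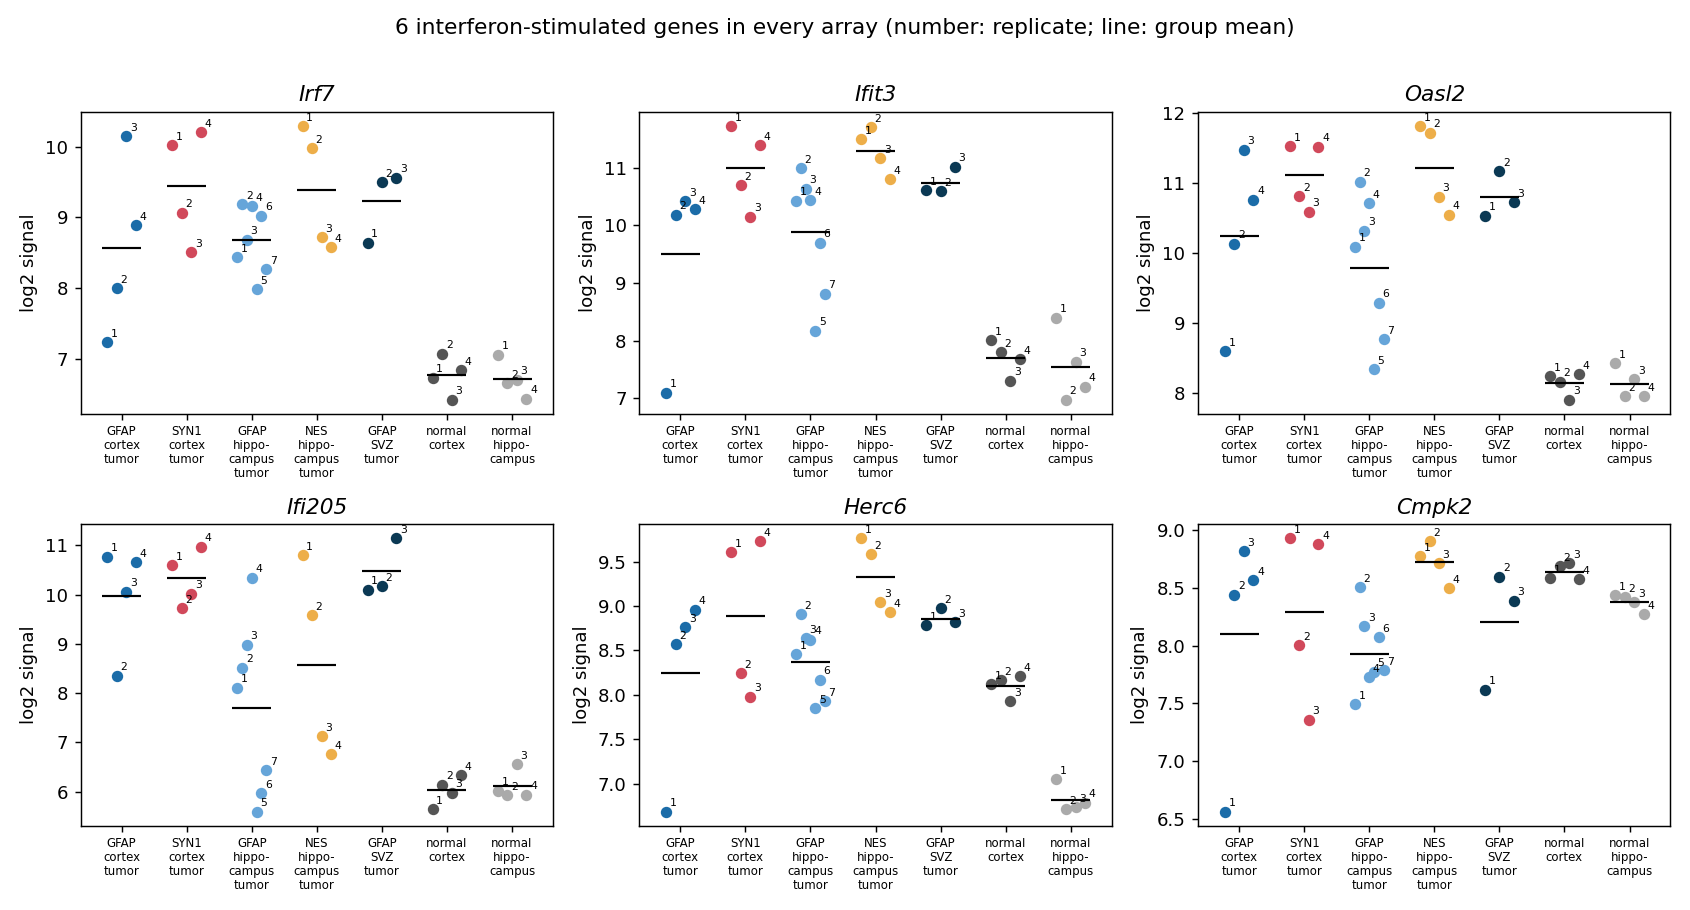
Log2 signal (y axis) of Irf7, Ifit3, Oasl2, Ifi205, Herc6 and Cmpk2 in each array (points, numbered by replicate) of the 7 groups (x axis), with the group mean as a line. Irf7 shows full separation from normal, Ifi205 splits the hippocampus tumors, and Cmpk2 is as high in normal brain as in tumors. The Herc6 points lie lower in normal hippocampus than in normal cortex, a difference that did not pass the threshold.

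All 3 membrane and receptor-chaperone genes, all 3 GTPases, all 3 Schlafen genes and all 4 remaining members rose in each of the 5 groups. Ifitm3, which blocks virus entry at endosomal membranes, was one of the brightest members and measured 10.93, 11.20, 12.14 and 11.57 in GFAP cortex tumors and 12.70, 11.67, 11.36 and 12.57 in SYN1 cortex tumors, against 9.47, 9.82, 8.54 and 9.79 in normal cortex. Hippocampal Ifitm3 had a lowest, median and highest signal of 10.42, 11.82 and 12.49 in GFAP hippocampus tumors and values of 12.88, 12.38, 12.04 and 11.72 in NES hippocampus tumors, against 9.78, 9.09, 9.49 and 9.51 in normal hippocampus. Ifitm3 was 12.07, 12.07 and 12.10 in SVZ tumors. The lowest tumor array of Ifitm3 was above the highest normal array, and it rose by 2.06 to 2.79 (adjusted p at most 0.000322). Bst2, the tetherin that holds budding virus at the cell surface, measured 8.01, 8.45, 9.54 and 9.0 in GFAP cortex tumors and 10.13, 9.12, 9.24 and 9.88 in SYN1 cortex tumors, against 7.42, 7.49, 7.76 and 7.48 in normal cortex. Hippocampal Bst2 had a lowest, median and highest signal of 8.83, 9.21 and 9.53 in GFAP hippocampus tumors and values of 10.11, 9.68, 8.69 and 8.64 in NES hippocampus tumors, against 7.57, 7.54, 7.60 and 7.54 in normal hippocampus. Its SVZ tumor values were 8.82, 8.94 and 9.48. GFAP hippocampus tumors 5, 6 and 7 were not low for Bst2, as they were for Ifit3, and Bst2 rose by 1.21 to 2.05 (adjusted p at most 0.00317). Rtp4, a receptor-transporting protein, rose by 1.80 to 2.74.

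Iigp1, an immunity-related GTPase that attacks pathogen vacuoles, measured 6.25, 6.91, 8.39 and 7.50 in GFAP cortex tumors and 7.85, 7.08, 6.68 and 8.21 in SYN1 cortex tumors, against 5.59, 5.50, 5.84 and 5.61 in normal cortex. Hippocampal Iigp1 had a lowest, median and highest signal of 6.49, 6.83 and 7.59 in GFAP hippocampus tumors and values of 8.99, 8.27, 7.06 and 7.18 in NES hippocampus tumors, against 5.74, 5.70, 5.74 and 5.90 in normal hippocampus. Iigp1 was 8.37, 7.64 and 7.39 in SVZ tumors. It rose by 1.21 to 2.10 (adjusted p at most 0.00777) with no overlap with normal. Gbp3, a guanylate-binding protein, rose by 1.63 to 2.55, with the smallest adjusted p of the members in NES hippocampus tumors (3.85e-06). Irgm1, a regulator of autophagy of the same GTPase class, rose by 1.45 to 2.91 and was above normal in every tumor array except GFAP cortex tumor 1, which lay below all 4 normal cortex arrays.

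Slfn5, of the Schlafen family of growth and antiviral regulators, measured 8.50, 8.03, 8.77 and 8.41 in GFAP cortex tumors and 9.52, 8.0, 7.60 and 9.47 in SYN1 cortex tumors, against 6.82, 6.96, 6.86 and 6.77 in normal cortex. Hippocampal Slfn5 had a lowest, median and highest signal of 7.09, 8.01 and 8.29 in GFAP hippocampus tumors and values of 9.11, 8.90, 7.86 and 7.84 in NES hippocampus tumors, against 6.73, 6.56, 6.57 and 6.71 in normal hippocampus. Slfn5 was 7.90, 8.51 and 7.88 in SVZ tumors. All tumor arrays exceeded their normals and Slfn5 rose by 1.14 to 1.80 (adjusted p at most 0.00468). Slfn2 rose by 1.41 to 1.88 and Slfn8 by 1.28 to 2.45. Lgals3bp, a secreted galectin-binding glycoprotein, measured 9.32, 10.70, 12.06 and 11.57 in GFAP cortex tumors and 11.87, 11.13, 11.06 and 11.92 in SYN1 cortex tumors, against 8.96, 8.94, 8.76 and 9.21 in normal cortex. Hippocampal Lgals3bp had a lowest, median and highest signal of 9.92, 11.17 and 11.65 in GFAP hippocampus tumors and values of 12.22, 11.94, 11.55 and 11.16 in NES hippocampus tumors, against 9.35, 8.80, 8.93 and 8.56 in normal hippocampus. Lgals3bp was 11.13, 11.70 and 11.77 in SVZ tumors. Tumor and normal arrays did not overlap within any comparison, and Lgals3bp rose by 1.95 to 2.81 (adjusted p at most 0.00102). The galectin Lgals9 rose by 1.17 to 2.13, Ifi35 by 1.09 to 1.71 and Xaf1, a promoter of apoptosis, by 1.0 to 1.64. Close relatives in the Ifi200, Trim30, Oas, Schlafen, GTPase and Ifitm families could share probe signal, which was not measured here.

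Of 8 interferon genes measured, including Ifnb1, Ifng and 3 Ifna genes, 0 rose in any group by limma. Of all genes, 9.0% rose in GFAP cortex tumors, 18.2% in SYN1 cortex and 16.1% in GFAP hippocampus tumors. In NES hippocampus tumors 5.69% rose and in SVZ tumors 16.2%. A list of 8 genes is too short to tell a count of 0 from these shares. Ifnb1, the first type I interferon made by most cells, had differences of -0.19 to 0.0. Ifng, made by T and NK cells, had -0.10 to 0.28, the highest in SVZ tumors (adjusted p = 0.0544). Ifnl2, a type III interferon, fell by 0.36 in SYN1 cortex tumors (adjusted p = 0.0447) and by 0.60 in GFAP hippocampus tumors (adjusted p = 0.000379). At an unadjusted p under 0.05 by limma, Ifng was higher in SVZ tumors. Ifnk in GFAP cortex tumors, Ifna2 in GFAP hippocampus tumors and Ifnl2 in SYN1 cortex and GFAP hippocampus tumors were lower. In either direction 36.98% of all genes met that cut in GFAP cortex tumors and 45.01% in SYN1 cortex tumors. The share was 48.93% in GFAP hippocampus tumors and 44.03% in SVZ tumors, so these calls do not set the interferon genes apart. Dim transcripts such as those of the interferon genes are compressed by background.

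Of 9 receptor and kinase genes, 3 rose in GFAP cortex tumors, 5 in SYN1 cortex tumors, 2 in GFAP hippocampus tumors, 4 in NES hippocampus tumors and 4 in SVZ tumors, and 0 fell. Ifngr1, a chain of the interferon gamma receptor, rose in all 5 groups by 1.26 to 1.51, and so did Il10rb, a chain of the type III receptor, by 1.30 to 1.96. Ifnar2 rose in 4 groups by 0.83 to 1.15 and had 0.62 ± 0.28 in GFAP hippocampus tumors (adjusted p = 0.0752). Ifnar1 rose by 0.47 ± 0.17 in SYN1 cortex tumors and 0.51 ± 0.16 in SVZ tumors. Jak1, the kinase on both receptor types, passed in no group (-0.40 to 0.03).

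Among 5 brakes on the pathway, Socs3, a feedback inhibitor of JAK kinases, rose by 1.56 to 2.37 and the phosphatase Ptpn6 by 0.86 to 1.01 in every group. Socs1, the main brake on interferon receptors, rose by 0.45 ± 0.13 in SYN1 cortex tumors and 0.36 ± 0.12 in SVZ tumors alone, and Pias1 fell by 1.15 in GFAP hippocampus tumors (adjusted p = 0.00521). Of 13 genes of upstream sensing, 5, 8, 7, 6 and 8 rose in GFAP cortex, SYN1 cortex, GFAP hippocampus, NES hippocampus and SVZ tumors. Sting1, the adaptor of cytosolic DNA sensing, rose by 1.76 to 2.32, the nucleotide hydrolase Samhd1 by 1.39 to 2.29 and the RNA receptor Tlr7 by 1.28 to 1.95 in every group, and so did Irf5 and Irf8. Adar, which edits double-stranded RNA and so limits its sensing, fell by 0.88 in GFAP cortex tumors, 0.70 in SYN1 cortex tumors and 0.86 in SVZ tumors.

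The members varied together from tumor to tumor. The mean of the 43 over the normal mean was 0.56, 1.23, 2.22 and 1.87 in GFAP cortex tumors, 2.56, 1.71, 1.58 and 2.72 in SYN1 cortex tumors, 1.68, 1.93 and 2.04 in SVZ tumors and 2.72, 2.37, 1.54 and 1.37 in NES hippocampus tumors. It ran from 0.46 over a median of 1.45 to 1.83 in GFAP hippocampus tumors, against -0.14 to 0.11 in the 8 normal arrays. Every tumor array was thus above every normal array, the lowest being GFAP hippocampus tumor 5 and GFAP cortex tumor 1. GFAP cortex tumor 3 was the highest of its group for 37 members and NES hippocampus tumor 1 of its group for 39, while GFAP cortex tumor 1 was the lowest for 35 and NES hippocampus tumor 4 for 37. The median standard deviation of a member was 0.72 in GFAP cortex tumors, 0.58 in SYN1 cortex tumors, 0.56 in GFAP hippocampus tumors, 0.67 in NES hippocampus tumors and 0.33 in SVZ tumors, against 0.14 in normal cortex and 0.16 in normal hippocampus.

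The microglia and macrophage marker mean is set beside these because it also differed between tumors. It was 0.78, 1.22, 2.01 and 1.72 above normal in GFAP cortex tumors 1 to 4 and 2.03, 2.05, 1.42 and 1.05 in NES hippocampus tumors 1 to 4, in the same order as the member mean or nearly so. In SYN1 cortex tumors it was 2.03, 0.89, 0.52 and 1.98. The order within GFAP hippocampus and SVZ tumors is not given here. Its part in the spread of the members was not tested.

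**Figure D5:**
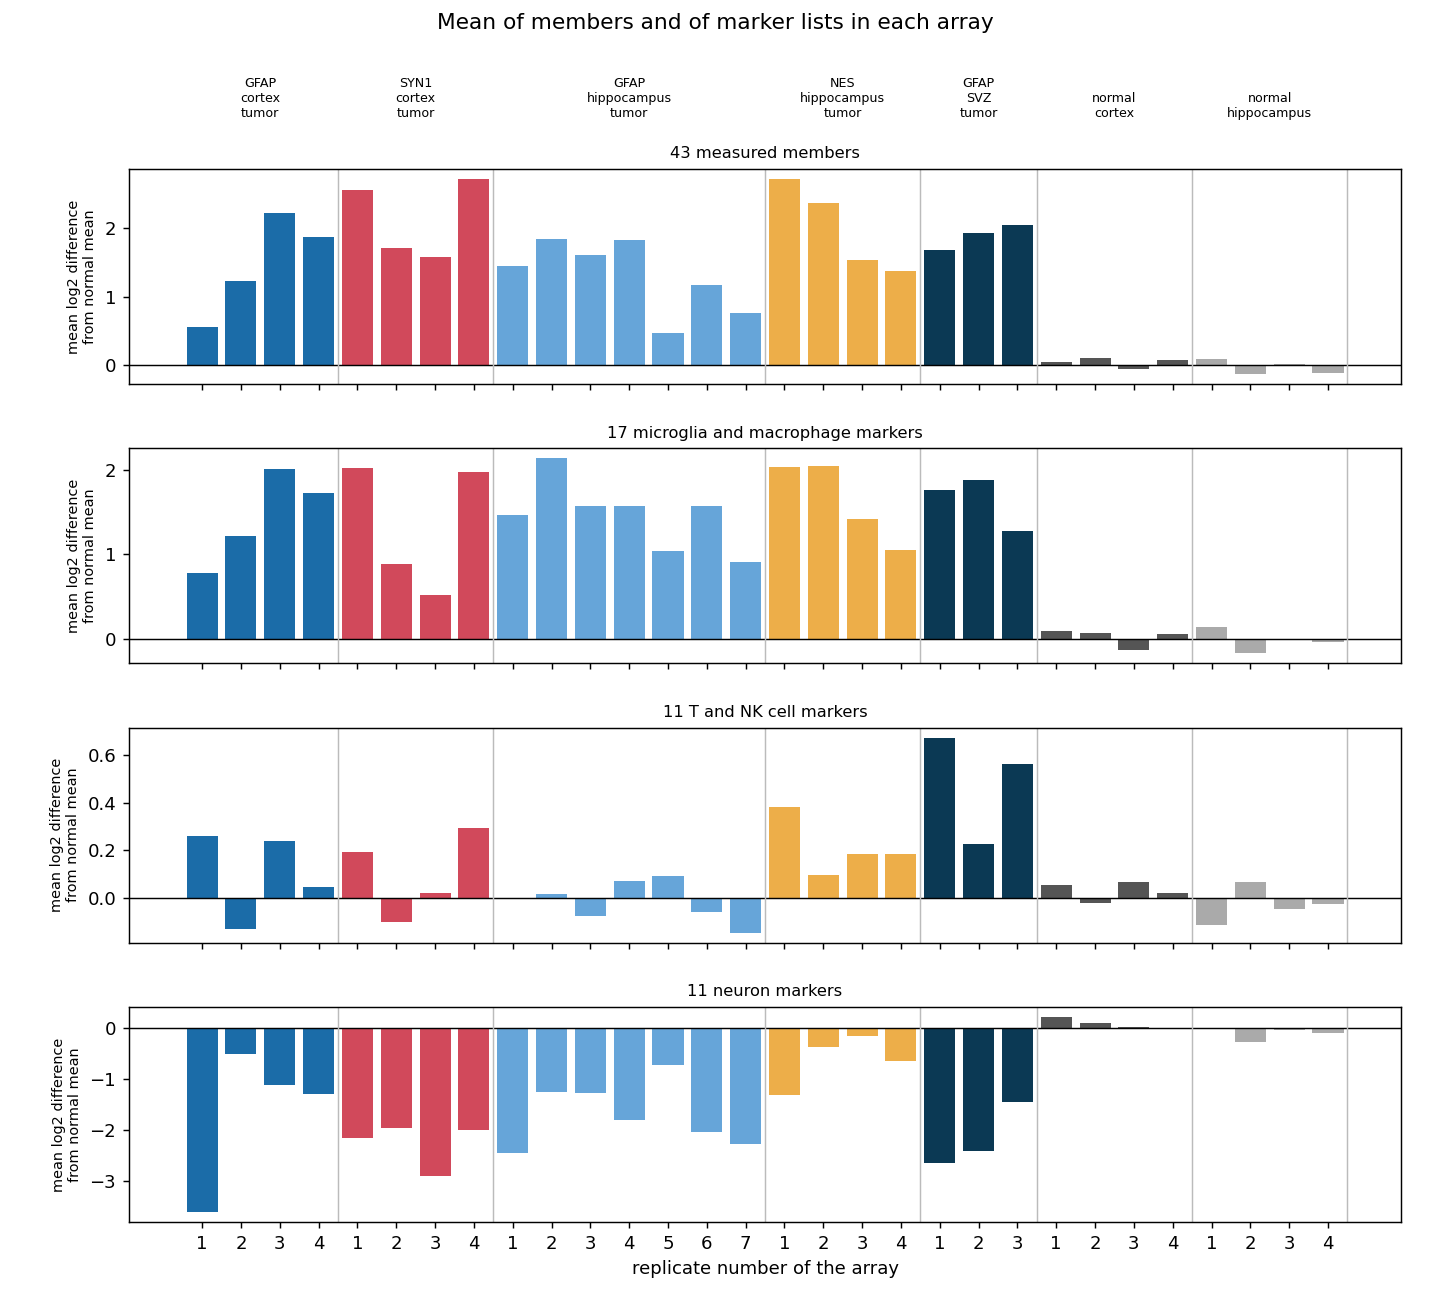
Mean log2 difference from the normal mean (y axis) in each array (bars, by group and replicate number) for the 43 members and for the microglia and macrophage, T and NK cell and neuron marker lists (panels from the top, each with its own y scale). In the top panel all 22 tumor arrays lie above the 8 normal arrays, from 0.46 in GFAP hippocampus tumor 5 to 2.72 in SYN1 cortex tumor 4 and NES hippocampus tumor 1.

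Over the 22 tumor arrays, as deviations from their group means, a member's Pearson correlation with the mean of the other members had a median of 0.906, and 36 of 43 exceeded 0.8. Over all other genes the median was 0.152. Trim30a followed the others most closely (0.966), and Ifi205 (0.665), Cmpk2 (0.680) and Oasl1 (0.719) least, so Cmpk2 varied with the family among tumors although its difference from normal passed in no group. The 10 other genes with the most similar pattern were Rnf213 (0.977), Ccl5 (0.957), Oas1b (0.944), Trim30d (0.940), Fcer1g (0.939), Treml2 (0.938), Ikzf1 (0.937), Cd52 (0.930), Lcp2 (0.929) and Spi1 (0.927). Rnf213 encodes a ubiquitin ligase, Ccl5 a chemokine, Oas1b an oligoadenylate synthetase, and Fcer1g, Ikzf1, Cd52, Lcp2 and Spi1 are expressed in blood and immune cells. These correlations describe arrays that share tissue make-up and array quality. Members with ISRE letters had median differences from normal of 1.64, 2.30, 1.55, 2.14 and 2.0 in GFAP cortex, SYN1 cortex, GFAP hippocampus, NES hippocampus and SVZ tumors, and those with a window but no such letters had 1.18, 1.83, 1.44, 1.81 and 1.71.

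The CRE promoters were compared within each region. In the cortex all 43 members were higher in SYN1 than in GFAP tumors on average, with a median difference of 0.61 against 0.07 over all genes, and 1 passed by limma, where 0.150% of all genes were higher. At an unadjusted p under 0.05, 16 members were higher (10.4% of all genes) and 0 lower (4.26%). Oasl1 was the member that passed, at 1.62 ± 0.35 (adjusted p = 0.0477), on the array values given above, and Trim25 was the only other member whose SYN1 arrays all lay above the GFAP arrays (6.56% of all genes). Over 43 alternative settings the Oasl1 difference stayed between 1.27 and 1.84, with adjusted p from 0.00428 to 0.266. That p was under 0.05 in 17 of them, 1 of which demanded 0.01 and was not met. Without GFAP cortex tumor 1 the median of the members was 0.37, and with array weights it was 0.12. Without the 4 arrays that stand apart 3 members passed.

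In the hippocampus 41 of 43 members were higher in NES than in GFAP tumors on average, with a median difference of 0.72 against 0.06 over all genes. Oasl2 alone passed by limma, at 1.43 ± 0.45 (adjusted p = 0.0473), where 6.12% of all genes were higher, and at an unadjusted p under 0.05, 27 members were higher (19.8% of all genes) and 0 lower (7.85%). Markers of some other cells differed in the same direction. The median was 1.33 over 11 neuron markers, of which 10 were positive and 1 passed. It was 0.88 over 7 oligodendrocyte markers, all positive, and 0.56 over 8 astrocyte markers, while 17 microglia and macrophage markers had 0.13. Other lists went the other way. The median was -0.14 over 7 endothelial markers, of which 1 was lower past the threshold, -0.433 over 6 neutrophil markers and -0.325 over 7 mural and fibroblast markers. Of the T and NK cell markers 2 of 11 and of the plasmacytoid dendritic cell markers 2 of 5 were higher. The part of these cells in the members' differences was not tested. Ifit1 had the largest difference, 1.64 ± 0.55 (adjusted p = 0.0613), which was 0.77 (adjusted p = 0.122) without the 4 arrays that stand apart. Herc6 was the only member whose NES arrays all exceeded the GFAP arrays, as 0.983% of all genes did. The Oasl2 result rested on GFAP hippocampus tumors 5, 6 and 7: it was 0.69 (adjusted p = 0.0988) without the 4 arrays that stand apart, and 2.42 against tumors 5 to 7 alone. Without the 4 arrays 2 members passed, and without GFAP cortex tumor 1 alone 13 did. The median of the members was 0.36 against tumors 1 to 4 and 1.16 against tumors 5 to 7. Over 43 alternative settings the adjusted p of Oasl2 ran from 0.000262 to 0.287. That p was under 0.05 in 16 of them, 1 of which demanded 0.01 and was not met.

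Regions were compared among the GFAP tumors. No member passed between hippocampus and cortex tumors by limma, where 2.24% of all genes were higher and 0.441% lower, and at an unadjusted p under 0.05 0 were higher (11.3% of all genes) and 2 lower (6.74%). The direction of the median of the members depended on the arrays. It was -0.16 over all arrays and -0.13 without the 4 that stand apart. With hippocampus tumors 1 to 4 only it was 0.20 and with tumors 5 to 7 only -0.62. It was -0.44 without GFAP cortex tumor 1 and 0.09 without GFAP cortex tumor 3. The replicate block also gave 0.20, but no other group has replicates 5 to 7, so the block sets those tumors aside too. Ifi205 had the largest difference, -2.25 ± 0.73 (adjusted p = 0.0915), which was -0.70 (adjusted p = 0.517) without the 4 arrays, and -3.96 (adjusted p = 0.000214) with tumors 5 to 7 only.

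SVZ tumors had a median of 0.36 over cortex tumors and 0.49 over hippocampus tumors, with 0 members past the threshold in either by limma (0.00502% and 0.150% of all genes were higher). At an unadjusted p under 0.05, 4 members were higher than in cortex tumors (6.61% of all genes) and 11 higher than in hippocampus tumors (9.32%). Without the 4 arrays that stand apart those medians were 0.10 and 0.19, beside 0.10 and -0.06 over all genes, and with array weights the median over cortex tumors was -0.06. Ifi205 had 2.76 ± 0.81 (adjusted p = 0.122) in SVZ tumors minus hippocampus tumors, which was 1.48 without the 4 arrays. Zbp1 had 1.17 ± 0.34 (adjusted p = 0.119) in the same comparison, which was 0.77 without them. These missed the threshold, which does not show that the regions are alike.

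Between the normal tissues, 0 members passed by limma (0.562% of all genes higher, 0.727% lower) and 1, Herc6, was lower in hippocampus at an unadjusted p under 0.05 (3.52% of all genes). The median difference was -0.02. Slfn5, Cmpk2, Ifih1 and Herc6 were lower in every normal hippocampus array than in every normal cortex array, as 12% of all genes were. The difference in differences, GFAP hippocampus tumors over their normal tissue minus GFAP cortex tumors over theirs, had 0 members past the threshold by limma (0.341% of all genes higher, 0.497% lower). Its median was -0.07 over all arrays, -0.09 without the 4 that stand apart and -0.36 without GFAP cortex tumor 1. It was 0.25 with hippocampus tumors 1 to 4 only and with the replicate block, which sets tumors 5 to 7 aside too. With tumors 5 to 7 only it was -0.53. At an unadjusted p under 0.05, Herc6 was higher (6.77% of all genes) and Ifi205 lower (3.86%), at -2.34 ± 1.11 (adjusted p = 0.449), which was -0.79 without the 4 arrays.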

How the data were processed

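Total RNA of 22 mouse brain tumors and 8 normal brain samples was extracted with Trizol, labelled with the Ambion WT expression kit and hybridised to 30 Affymetrix Mouse Gene 1.0 ST arrays, per the labels. Affymetrix Power Tools, MAS5 and RMA are named, without versions, in the submitters' processing notes; normalization between arrays is not given in the sources used here. The deposited values are log2 signals, 1 per probe set and array, from 0.133 to 16.1, and were used as deposited. The number of arrays limits the precision. Of 35556 probe sets, 21789 named 1 gene symbol, 1621 several and 12146 none, and 21698 matched RefSeq (GRCm38.p6). The probe set with the highest mean over all arrays was kept for each gene, which left 19938 genes with no filter on low signal.

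Group means of the 7 groups were fitted on all 30 arrays with limma 3.58.1 (R 4.3.3), with 1 pooled spread per gene, 12 contrasts and Benjamini-Hochberg adjustment over all genes (adjusted p under 0.05, two-sided). The fit was tested on simulated data. The members and all gene lists were chosen with earlier results of these data known, so their counts are descriptions. Array values are given for fixed symbols in each role and for members among the 3 largest called differences of a contrast; Herc6, Cmpk2 and the members given by range were added. Motifs were searched in RefSeq promoter windows of 300 bases. Alternatives covered scaling, probe set choice, filters, limma options, thresholds, a replicate block and leaving out arrays. The replicate numbers were treated as names, since in the labels they mark no shared animal or day. Only between GFAP hippocampus and cortex tumors 1 to 4 did every same-numbered pair deviate together (r from 0.277 to 0.306), and there the block left 0 members called.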

Additional observations from a re-analysis of the deposited data

Results flagged for a closer look

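In 258 tests of a member within a group of 4 to 7 arrays, 4 had 1 array far from the others; chance flags about 1 in 20. Ifit3 in GFAP cortex tumor 1 was 7.10, where the other GFAP cortex tumors lay at 10.2 to 10.4. Cmpk2 in the same array was 6.56, where the others lay at 8.44 to 8.82. Among normal hippocampus arrays, Ifi205 was 6.56 in array 3 (5.94 to 6.03 in the others) and Lgals9 was 8.43 in array 1 (8.05 to 8.09 in the others).

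The tumors of different promoters differed by a test for 2 members, both oligoadenylate synthetase-like genes. Oasl1 was 1.62 higher in SYN1 than in GFAP cortex tumors, and Oasl2 was 1.43 higher in NES than in GFAP hippocampus tumors. These are 1 of 43 members (2.33%) in each comparison, where 0.150% and 6.12% of all genes were higher. Over 43 alternative settings the adjusted p was under 0.05 in 17 for Oasl1 and in 16 for Oasl2. Each count includes the setting with a threshold of 0.01, which neither gene met.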

How the results depend on the processing

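No called difference of a member changed sign under any alternative. Of the member results, 21815 stayed on the same side of the threshold, 191 passed where they had not and 170 no longer passed. For results that passed in neither fit the direction was not compared, and it could change. Of 43 members, with 1 array left out at a time, 28 to 39 were higher in GFAP cortex tumors (28 without GFAP cortex tumor 3), 40 to 42 in SYN1 cortex tumors, 33 to 39 in GFAP hippocampus tumors, 35 to 41 in NES hippocampus tumors and 38 to 42 in SVZ tumors. Against normal hippocampus, GFAP hippocampus tumors 5 to 7 alone gave 18, with a median of 0.82. The cause was not tested.

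Between tumor groups the counts depended on single arrays and settings, and the cause was not tested. For NES against GFAP hippocampus tumors (1 member) the count was 0 with arrays centred on their medians, with only the arrays compared, at an adjusted p under 0.01, with tumors 1 to 4 only and with a replicate block. It was 2 with quantile normalization and without the 4 arrays that stand apart, 4 without the 30% of genes of lowest mean, 16 with array weights, 30 with tumors 5 to 7 only and 0 to 13 with 1 array left out (13 without GFAP cortex tumor 1, 9 without GFAP hippocampus tumor 2). For SYN1 against GFAP cortex tumors (1 member) it was 0 with trend and robust options, with only the arrays compared and at an adjusted p under 0.01, 3 without the 4 arrays, with tumors 1 to 4 only and with a replicate block, and 0 to 1 with 1 array left out. With tumors 5 to 7 only, 7 members were lower in GFAP hippocampus than cortex tumors, 18 higher in SVZ than hippocampus tumors, and 1 lower in the difference in differences, which had 1 higher with array weights. With 1 array left out these counts were 0 to 1 (1 without GFAP hippocampus tumor 4), 0 to 2 (2 without the same array) and 0. Normal hippocampus against cortex gave 4 with only its arrays, 1 with array weights, 1 without the 4 arrays and 0 to 1 with 1 array left out (1 without GFAP cortex tumor 1). SVZ against cortex tumors gave 0 throughout. The replicate block changed no other count of members by over 1.5 times.

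Counts over all genes had wide ranges over all alternatives: 2830 to 10610 (5536 as reported) in GFAP cortex tumors, 4283 to 10349 (7723) in SYN1 cortex tumors, 3248 to 10479 (8245) in GFAP hippocampus tumors, 702 to 7723 (1706) in NES hippocampus tumors and 3927 to 11488 (7504) in SVZ tumors. They were 1 to 2655 (35) for SYN1 against GFAP, 0 to 6742 (1637) for NES against GFAP, 0 to 4965 (534) for GFAP hippocampus against cortex tumors, 0 to 5173 (1) and 0 to 5648 (63) for SVZ against cortex and hippocampus tumors, 85 to 2362 (167) for the difference in differences and 149 to 2768 (257) for the normal tissues. Centring moved the share of called genes that were higher to 43.0% (74.5% as reported) for NES against GFAP tumors, 56.3% (66.5%) for NES tumors against normal, 71.0% (40.7%) for the difference in differences, 96.1% (83.5%) for GFAP hippocampus against cortex tumors and 27.8% (47.6%) for SVZ against hippocampus tumors. Quantile normalization moved it to 46.5% for NES against GFAP tumors, 59.3% (100%) for SVZ against cortex tumors and 69.2% (85.7%) for SYN1 against GFAP tumors. Centring also moved the median of all genes to -0.06 (0.06 as reported) for NES against GFAP tumors (members 0.60), to 0.12 for GFAP hippocampus against cortex tumors (members -0.05) and to 0.15 for the difference in differences (members 0.05). Dim members are compressed by background in these log2 signals.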
